A study of Mus musculus with 3 samples.

Results

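The hyaluronan and proteoglycan genes of the cardiac jelly, Has2, Ugdh, Vcan, Hapln1, Cd44, Bgn, Dcn, Lum and Omd, were followed in RNA-seq of mouse heart tubes at embryonic day 9.5. They were taken by gene symbol, and all 9 were present among the 23337 genes counted and among the 13334 genes tested. The Sox7-null group held 2 libraries, here null tube 1 and null tube 2, from heart tubes homozygous for loss of Sox7, which encodes an endothelial and endocardial transcription factor, and the wild-type group held 1 library. The comparison asks which transcripts of the developing heart differ in the absence of Sox7. The labels name neither the Sox7 allele nor the strain, and they do not say whether a tube was 1 embryo or a pool. The p-values therefore reflect only the spread of the 2 null libraries, possibly a technical one, and the fit takes the single wild-type library to vary in the same way.

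The cardiac jelly is the gel between the myocardium and the endocardium of the early heart tube. Hyaluronan, a long unsulfated sugar chain extruded at the cell surface, fills it with water, and versican bound along the chain and fixed by a link protein gives it structure. In mice, loss of the synthase Has2 or of versican leaves the heart without normal jelly and endocardial cushions. Small leucine-rich proteoglycans, a family of short matrix proteins that bind collagens and growth factors, are added as connective tissue forms.

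Reads assigned to genes numbered 13139823 to 13789388 per library. Sox7 had 2 and 7 reads in the null tubes against 222 in the wild type, low where the labels give it as null. Reads without a unique alignment made up 10.4% and 11.6% of the null libraries and 22.3% of the wild type. The ribosomal RNA row Rn45s had 85987 and 126116 reads in the null tubes against 287470 in the wild type (log2FC -1.48, edgeR adjusted p = 0.000136), and the part of this difference in the calls that follow was not tested. All 10 cardiomyocyte and all 12 endocardial and endothelial markers were detected and tested, while the eye markers Six6, Crx, Rcvrn and Atoh7 had 0 reads in every library, although the extraction text in the labels speaks of retinal organoids. Of 10 such markers 2 were tested and 0 were called (1 higher at an unadjusted edgeR p under 0.05).

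The 9 genes moved in opposite directions in the Sox7-null heart tubes. Vcan, Cd44 and Bgn rose, Omd and Lum fell, and Has2, Hapln1, Dcn and Ugdh did not pass the test. The rise was largest for Bgn, with a log2 fold change (log2FC, null minus wild type) of 2.35, and the fall with the most reads behind it was that of Omd, at -2.19. Thus 3 of 9 were higher (33.3%) where 11.3% of all tested genes were, and 2 of 9 were lower (22.2%) where 10.2% of all tested genes were. Lum passed the filter on low counts only through the wild type, where it is high, and without it 1 of 8 was lower (12.5%), near the share of all genes. In either direction 21.6% of all tested genes were called at an adjusted p under 0.05 (edgeR's quasi-likelihood test with Benjamini-Hochberg adjustment over all genes). The 9 genes were chosen with earlier results of these data known, so the shares among them are a description. The median log2FC was -0.44 over the 9 genes and 0.014 over all genes tested. In these bulk samples, fewer cells of a type and less RNA per cell cannot be told apart.

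**Figure D1:**
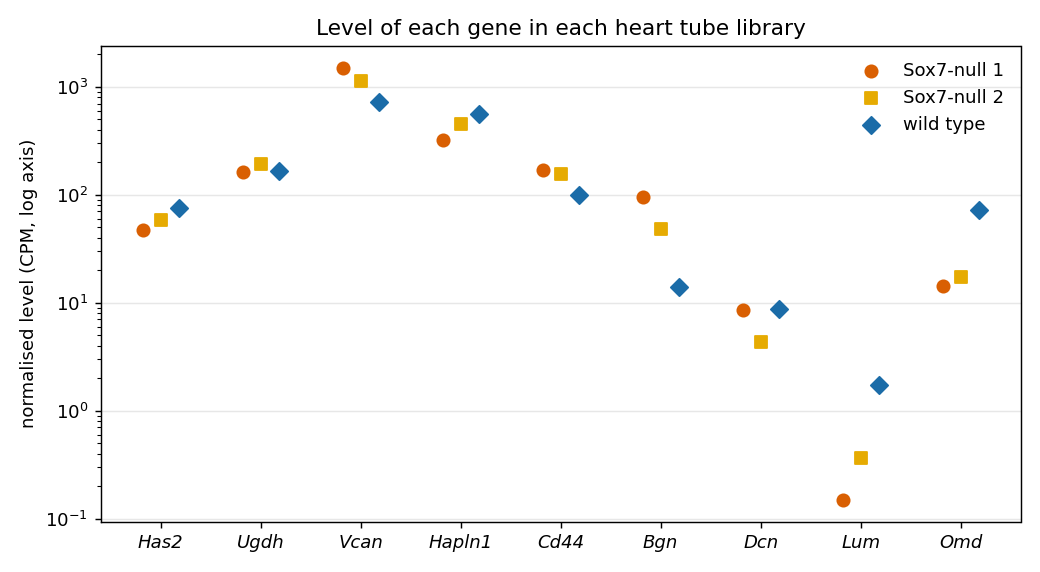
Normalised level of each gene (CPM, on a log axis) in null tube 1, null tube 2 and the wild type, 1 point per library. Both null points of Vcan, Cd44 and Bgn lie above the wild-type point, those of Has2, Hapln1, Lum and Omd lie below it, and the Ugdh points overlap. Both null points of Dcn lie below the wild-type point too, that of null tube 1 only just (8.53 against 8.67 CPM).

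Upstream of the jelly lies the supply of hyaluronan. Has2, the synthase that makes most hyaluronan of the early heart, had 636 reads in null tube 1, 803 in null tube 2 and 1005 in the wild type, or 47.2, 58.2 and 75.7 CPM (reads scaled to a common library size, with TMM factors). Both null tubes lay below the wild type. The log2FC of -0.52 ± 0.21 (SE) nevertheless missed the threshold (edgeR adjusted p = 0.0872), and its 95% interval ran from -0.97 to -0.08. The other synthases were near the floor of detection, with 1 to 4 reads per library for Has1 and 4 to 9 for Has3, so Has2 was the only synthase that could be tested. The antisense transcript of the Has2 locus, listed as Has2as, had 3, 2 and 5 reads. In GENCODE M21 it overlaps 182 exon bases of Has2, which is 4.30% of them.

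Ugdh oxidises UDP-glucose to UDP-glucuronic acid, a sugar donor for hyaluronan and for sulfated chains. It had 2178, 2656 and 2205 reads in null tube 1, null tube 2 and the wild type, or 161, 193 and 166 CPM. The wild type thus lay between the null tubes. The log2FC was 0.09 ± 0.19 (edgeR adjusted p = 0.766), with a 95% interval from -0.31 to 0.49. The estimate for Vcan, given next, lies outside that interval. The 95% interval of Vcan, 0.48 to 1.25, overlaps that of Ugdh, and a difference between the 2 genes was not tested.

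Versican (Vcan) is the large chondroitin sulfate proteoglycan that binds hyaluronan in the jelly. It was the gene with most reads among the 9, with 20337 in null tube 1, 15762 in null tube 2 and 9643 in the wild type, or 1508, 1143 and 727 CPM. Both null tubes lay above the wild type. Vcan rose by a log2FC of 0.87 ± 0.18 (edgeR adjusted p = 0.00509), and the log2 difference from the wild type was 1.05 in null tube 1 and 0.65 in null tube 2. With a trend on transcript length and GC content removed, the value was 0.63 and the call was lost (edgeR adjusted p = 0.0516). Gene counts do not separate the splice forms of versican, which differ in the chondroitin sulfate region.

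Hapln1 encodes the link protein that locks versican onto hyaluronan. Its order over the libraries was the reverse of that of Vcan, with 4374, 6267 and 7501 reads in null tube 1, null tube 2 and the wild type, or 324, 455 and 565 CPM. Both null tubes lay below the wild type, but the difference did not pass the test (log2FC -0.54 ± 0.19, edgeR adjusted p = 0.0629), and its 95% interval was -0.95 to -0.12. Per kilobase of exon, Hapln1 stood at 95.8 CPM and Vcan at 50.3 CPM in the wild type. In null tube 1 the same levels were 55.0 and 104 CPM per kilobase, and in null tube 2 they were 77.0 and 79.0. The ratio of Hapln1 to Vcan per length was therefore 0.527 and 0.974 in the null tubes and 1.91 in the wild type. This ratio differed between the null tubes by almost as much as between null tube 2 and the wild type, and with 3 libraries an exact permutation test cannot reach the threshold, so it is given as a description. Of the other lecticans, Acan had 3, 6 and 9 reads, and Ncan and Bcan had 0 reads in every library. Among the other link proteins, Hapln2 had 0 reads, Hapln3 had a log2FC of -0.62 ± 0.40 (edgeR adjusted p = 0.288), and Hapln4 had 9 to 11 reads per library.

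Cd44 is a cell surface receptor for hyaluronan. It had 2262 reads in null tube 1, 2145 in null tube 2 and 1311 in the wild type, or 168, 156 and 98.8 CPM. The null tubes were close to each other, with log2 differences of 0.76 and 0.65 from the wild type, and both lay above it. Cd44 rose by a log2FC of 0.71 ± 0.19 (edgeR adjusted p = 0.0179). It is made by several cell types, leukocytes and platelet precursors among them. Beside this rise, all 10 megakaryocyte and platelet markers tested rose, with a summed level of 409 and 251 CPM in the null tubes against 66.9 in the wild type. Of 10 macrophage and leukocyte markers 6 were tested, 3 rose and 1 fell, and the summed level was 48.0 and 24.2 CPM against 21.1. The part of these cells in the Cd44 level was not tested.

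**Figure D2:**
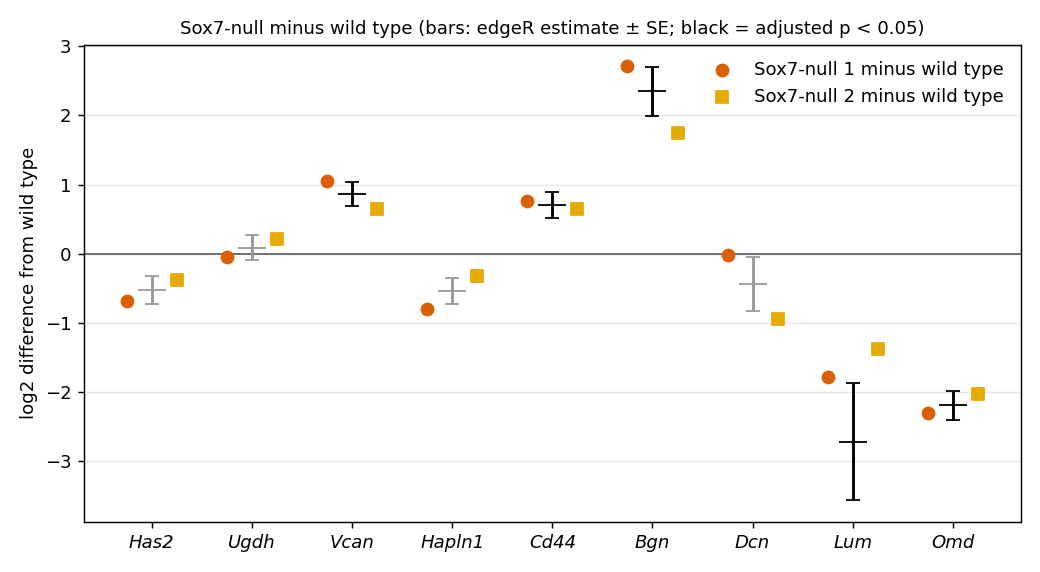
Log2 difference from the wild type for each gene. Points are each null library minus the wild type in log2(CPM + 0.5), and bars are the edgeR estimate ± SE, black where the adjusted p was under 0.05. Bgn is highest and Omd and Lum are lowest, and the Lum points sit above its estimate because the added 0.5 CPM pulls in values of genes with few reads.

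The 4 small leucine-rich proteoglycans did not share a direction. Biglycan (Bgn), which carries chondroitin or dermatan sulfate chains, had 1275 reads in null tube 1, 665 in null tube 2 and 186 in the wild type, or 94.5, 48.2 and 14.0 CPM. Both null tubes lay well above the wild type, though null tube 1 held 1.96 times the level of null tube 2. Bgn rose by a log2FC of 2.35 ± 0.36 (edgeR adjusted p = 0.00114). Decorin (Dcn), its closest relative in the family, had 115, 59 and 115 reads, or 8.53, 4.28 and 8.67 CPM. Here null tube 1 matched the wild type and null tube 2 alone was low. The log2FC of Dcn was -0.44 ± 0.39 (edgeR adjusted p = 0.459), with a wide 95% interval from -1.29 to 0.41.

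Osteomodulin (Omd), a keratan sulfate proteoglycan best known from bone, had 192 reads in null tube 1, 240 in null tube 2 and 956 in the wild type, or 14.2, 17.4 and 72.1 CPM. The null tubes lay close together and far below the wild type. Omd fell, with a log2FC of -2.19 ± 0.21 (edgeR adjusted p = 8.22e-05), and the call held at -1.73 with the length and GC trend removed (edgeR adjusted p = 0.000927). Lumican (Lum), a keratan sulfate proteoglycan of the cornea and other connective tissue, was close to the limit of detection, with 2, 5 and 23 reads, or 0.148, 0.363 and 1.73 CPM. On summed reads Lum was 6.76-fold lower in the null tubes (95% exact interval for counting error 2.81 to 18.6). Its log2FC of -2.71 ± 0.84 passed (edgeR adjusted p = 0.0366). The call was lost with the length and GC trend removed (edgeR adjusted p = 0.0799). Without null tube 2 the log2FC of Lum was -3.47, and without null tube 1 it was -2.23.

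Omd and Lum each lie in a cluster of related genes. In GENCODE M21 (GRCm38) Omd lies on chromosome 13, between Aspn and Ogn and within the body of Cenpp on the opposite strand, with 0 exon bases in common. Aspn had 5, 11 and 17 reads in null tube 1, null tube 2 and the wild type (log2FC -1.12 ± 0.79, edgeR adjusted p = 0.340). Ogn had 3 to 6 reads and Ecm2 2 to 8 reads per library. Cenpp, a centromere protein gene, had 347, 345 and 502 reads (log2FC -0.58 ± 0.21, edgeR adjusted p = 0.0653). On chromosome 10 Lum lies between Dcn and Kera, and both Kera and Epyc had 0 reads in every library. Over the whole family of 17 small leucine-rich proteoglycan genes, 7 were tested. Of these 2 rose (28.6%, against 11.3% of all tested genes) and 2 fell (28.6%, against 10.2%). Without Lum 1 of 6 fell (16.7%). The further riser was Tsku, a secreted signalling modulator, at 0.77 ± 0.25 (edgeR adjusted p = 0.0442), a call lost under 4 of 7 alternatives (limma-voom, DESeq2, a mean of at least 5 CPM, and removal of the length and GC trend, with edgeR adjusted p = 0.115). Fmod had 22, 7 and 23 reads and did not pass (edgeR adjusted p = 0.527).

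Promoter sequences are shown for the 4 called genes that have an entry in the RefSeq promoter table (GRCm38.p6), since these are the genes whose levels differed. Each run covers 250 bases before to 50 bases after the annotated start, 5′ to 3′ on the gene's strand. Capitals mark matches on either strand to any of 5 short motifs: ACGTG and GCGTG, cores bound by hypoxia-inducible factors, AACAAT and ACAAAG, which SOX proteins can bind, and TATAAA, the TATA box. The windows are chrX:73483351-73483650 (plus strand) for Bgn, chr2:102901616-102901915 (minus strand) for Cd44, chr13:89742463-89742762 (minus strand) for Vcan and chr13:49582212-49582511 (plus strand) for Omd.
Bgn: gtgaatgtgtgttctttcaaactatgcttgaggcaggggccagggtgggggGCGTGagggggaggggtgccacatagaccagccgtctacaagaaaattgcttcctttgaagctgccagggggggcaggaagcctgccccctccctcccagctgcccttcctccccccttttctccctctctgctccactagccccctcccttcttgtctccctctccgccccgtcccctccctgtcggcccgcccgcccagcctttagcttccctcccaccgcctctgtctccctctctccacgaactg
Cd44: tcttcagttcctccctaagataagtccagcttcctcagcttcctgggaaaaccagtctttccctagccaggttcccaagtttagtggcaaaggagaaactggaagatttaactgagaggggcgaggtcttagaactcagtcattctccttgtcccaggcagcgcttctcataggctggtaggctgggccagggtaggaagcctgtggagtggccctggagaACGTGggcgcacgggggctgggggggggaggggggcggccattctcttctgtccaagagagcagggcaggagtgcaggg
Vcan: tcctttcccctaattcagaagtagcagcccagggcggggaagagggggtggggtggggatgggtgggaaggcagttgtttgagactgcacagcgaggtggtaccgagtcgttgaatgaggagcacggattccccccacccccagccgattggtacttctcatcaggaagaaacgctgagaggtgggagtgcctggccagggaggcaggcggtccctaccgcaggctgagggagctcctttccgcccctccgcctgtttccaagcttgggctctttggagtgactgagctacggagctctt
Omd: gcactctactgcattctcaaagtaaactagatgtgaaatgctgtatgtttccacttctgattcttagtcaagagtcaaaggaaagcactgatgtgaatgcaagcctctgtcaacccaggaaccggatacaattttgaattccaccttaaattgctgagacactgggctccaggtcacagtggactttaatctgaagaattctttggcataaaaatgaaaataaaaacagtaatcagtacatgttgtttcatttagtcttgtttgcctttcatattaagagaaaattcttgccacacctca

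Among these 4 windows ACGTG was found in Cd44, starting 29 bases before the start, and GCGTG in Bgn, starting 199 bases before it. The Vcan and Omd windows held none of the 5 motifs. In the 2 other members with an entry, Ugdh held GCGTG at 3 places and Hapln1 held none of the motifs. Over all 32851 promoter windows of 300 bases, 19.6% held ACGTG, 32.4% GCGTG, 10.7% AACAAT, 18.7% ACAAAG and 13.6% TATAAA. The windows of the 3 genes that rose had a GC content of 63.7% (Bgn), 61.0% (Vcan) and 58.0% (Cd44), above the median of 52.7% over all windows. Those of Ugdh (71.0%) and Hapln1 (54.3%), which were not called, were above it too. The Omd window had 37.7% GC and 1 CpG, and 6.63% of all windows had a lower GC content. Has2, Dcn and Lum had no entry.

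The order of the levels per length differed between the libraries. In the wild type Hapln1 was highest at 95.8 CPM per kilobase of exon, followed by Vcan (50.3), Omd (32.0), Ugdh (24.6), Has2 (17.9), Cd44 (14.6), Bgn (2.30), Dcn (1.49) and Lum (0.708). In both null tubes Vcan came first and Hapln1 next, though in null tube 2 they were nearly equal, at 79.0 and 77.0. Omd, in the third place in the wild type, was in the seventh in both null tubes, at 6.33 and 7.74 CPM per kilobase. Cd44 and Ugdh exchanged places between the null tubes (24.8 and 23.9 in null tube 1, 23.0 and 28.5 in null tube 2), as did Bgn and Has2 (15.5 and 11.1, then 7.91 and 13.7), so these neighbours did not differ beyond the spread of the null tubes. Dcn and Lum were last in every library. With 1 wild-type library, its order has no spread to set it against.

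**Figure D3:**
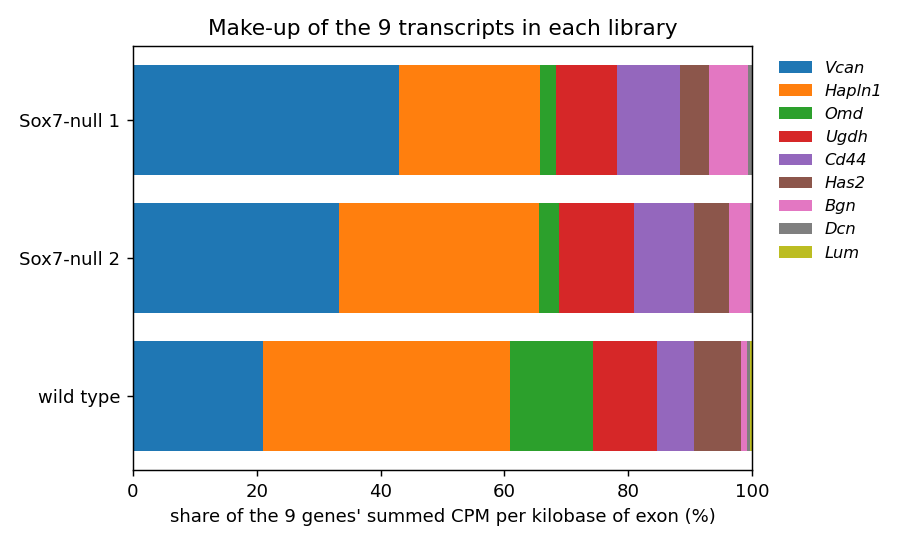
Share (%) of each gene in the summed CPM per kilobase of exon of the 9 genes, 1 bar per library. Vcan takes 43.0% and 33.2% in the null tubes and 20.97% in the wild type, Hapln1 22.7% and 32.4% against 39.97%, and Omd 2.61% and 3.25% against 13.4%.

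Across the rest of the pathway, genes of proteoglycan cores, sulfation and matrix turnover rose more often than they fell. Of 101 further genes in lists covering hyaluronan and proteoglycan biology, 73 were tested, 19 rose (26.0%, against 11.3% of all tested genes) and 4 fell (5.48%, against 10.2%). The lists were chosen with earlier results of these data known, so these shares are a description and not a test. Without the 8 genes that passed the filter through 1 group only, 18 of 65 rose (27.7%) and 3 fell (4.62%). Of all tested genes left after the same step, 11.4% rose and 10.4% fell. The median log2FC of all 73 tested genes was 0.33, and values below are log2FC ± SE unless said otherwise. Of the 19 genes that rose, 13 were also called under each of 7 other scalings, filters and tests that gave them an adjusted p, and so were 3 of the 4 that fell, Itih2 among them. A further setting, which tested every gene with at least 1 read, called 0 genes with edgeR and is set out under the processing.

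Among the enzymes that make the sugar precursors 1 of 10 was higher and 1 lower (10%, near the 11.3% and 10.2% of all tested genes), and 3 were higher and 2 lower at an unadjusted edgeR p under 0.05. Renbp, which binds renin and interconverts amino sugars, rose by 0.87 ± 0.23 (edgeR adjusted p = 0.0183; DESeq2 adjusted p = 0.0611). Gnpnat1, which acetylates glucosamine phosphate, had a log2FC of -0.61 ± 0.20 and was called lower (edgeR adjusted p = 0.0452). That call was lost under 4 of 7 alternatives, among them removal of the length and GC trend, where the value was -0.29 (edgeR adjusted p = 0.316). Gfpt2, an isoform of the entry enzyme of the hexosamine pathway, stood at 0.58 ± 0.23 and Uap1l1 at 1.15 ± 0.42, and neither passed.

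Among 13 hyaluronan receptors and binding proteins 9 were tested. Of these 3 rose (33.3%, against 11.3% of all tested genes) and 1, Itih2, fell (11.1%, against 10.2%). Besides Cd44 the risers were the scavenger receptor gene Stab1 (0.94 ± 0.23) and the endothelial receptor gene Lyve1 (1.22 ± 0.34), neither of which passed with DESeq2 (adjusted p = 0.0567 and 0.122). Without the length and GC trend Stab1 stood at 0.31 and was not called (edgeR adjusted p = 0.363). Stab2 had 28, 18 and 4 reads and did not pass (edgeR adjusted p = 0.0570). Itih2, a liver-made heavy chain that is linked to hyaluronan, had 0 and 1 reads in the null tubes against 68 in the wild type, which was 140-fold lower (95% exact interval for counting error 24.3 to 5602). It passed the filter only through the wild type, so that a call could only be a fall. Habp2, another plasma protein of liver, had 0 reads in the null tubes and 12 in the wild type, so that its level was at least 8.22-fold lower with the null group set to 3 counts in all. Beside these values, 7 of 10 foregut and liver endoderm markers fell and 1, Sox17, which endothelium also makes, rose. Their summed level was 17.4 and 14.5 CPM in the null tubes against 53.9 in the wild type, and without Sox17 it was 2.82 and 3.92 CPM against 51.5. The part of such tissue in the Itih2 and Habp2 levels was not tested.

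Genes of breakdown rose where they passed. Of 11 genes of hyaluronan breakdown 6 were tested, 3 rose (50%, against 11.3% of all tested genes) and 0 fell (against 10.2%). Hexa, which encodes a lysosomal hexosaminidase subunit, rose (0.91 ± 0.22). Cemip, a hyaluronan-depolymerising protein counted under the older symbol 9930013L23Rik, had 216 reads in null tube 1 but 22 in null tube 2 and 7 in the wild type. It passed the filter only through the null tubes, where it is high, so that a call could only be a rise. Without it 2 of 5 breakdown genes rose (40%, against 11.4% of all tested genes that did not pass through 1 group only). The Cemip call (edgeR adjusted p = 0.0254) was lost under 4 of 7 alternatives, DESeq2 among them (adjusted p = 0.217). The cell surface hyaluronidase Hyal2 had 546, 544 and 775 reads (log2FC -0.55 ± 0.20, edgeR adjusted p = 0.0652). With the length and GC trend removed it was called lower, at -0.73 (edgeR adjusted p = 0.0245).

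Of 7 ADAMTS proteases that can cleave versican 6 were tested. Of these 2 rose (33.3%, against 11.3% of all tested genes) and 1 fell (16.7%, against 10.2%). Adamts9 had 1317 and 1068 reads in the null tubes against 505 and rose by 1.20 ± 0.22 (edgeR adjusted p = 0.00304). Adamts1 had 1076 and 647 against 426 and rose by 0.98 ± 0.29 (edgeR adjusted p = 0.0282), but not at a mean of at least 5 CPM, nor after removal of the length and GC trend (edgeR adjusted p = 0.0774). Adamts5 moved the other way, with 48 and 26 reads against 140 and a log2FC of -1.95 ± 0.40 (edgeR adjusted p = 0.00496). Adamts8 had 31, 20 and 5 reads and did not pass (edgeR adjusted p = 0.0574).

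Of 13 enzymes that start and extend chondroitin chains, 1 was higher (7.69%, near the 11.3% of all tested genes). At the same time 0 were lower, where 10.2% of all tested genes were (0 lower also at an unadjusted edgeR p under 0.05). The 1 called gene was Xylt2, a xylosyltransferase that primes the chain on the core protein, at 1.35 ± 0.27 (edgeR adjusted p = 0.00472). B3galt6, B3gat3 and Chpf2 stood at -0.52, -0.39 and 0.56 and did not pass. In the sulfation and epimerisation list, 3 of 14 rose (21.4%, against 11.3% of all tested genes) and 1 fell (7.14%, against 10.2%). The sulfotransferase genes Chst15 (1.98 ± 0.37) and Chst11 (1.34 ± 0.27) and Papss1, which makes the sulfate donor (1.01 ± 0.22), rose. Slc35b2, the transporter that brings that donor into the Golgi, had a log2FC of -0.77 ± 0.19 and fell (edgeR adjusted p = 0.0143).

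Heparan sulfate proteoglycans of basement membrane and cell surface were the list with most risers, at 6 of 12 tested. That was 50%, against 11.3% of all tested genes, and 0 fell, against 10.2% (0 lower also at an unadjusted edgeR p under 0.05). Perlecan (Hspg2) had 3940 and 2608 reads in the null tubes against 743 in the wild type and rose by 2.10 ± 0.26 (edgeR adjusted p = 0.000361). Without the length and GC trend its value was 1.33, and it was still called. Agrin (Agrn) rose by 1.44 ± 0.23, and by 0.80 without that trend, where it was still called. The syndecan gene Sdc4 rose by 1.78 ± 0.27, and the glypican genes Gpc3, Gpc4 and Gpc6 by 1.11, 0.78 and 1.14.

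**Figure D4:**
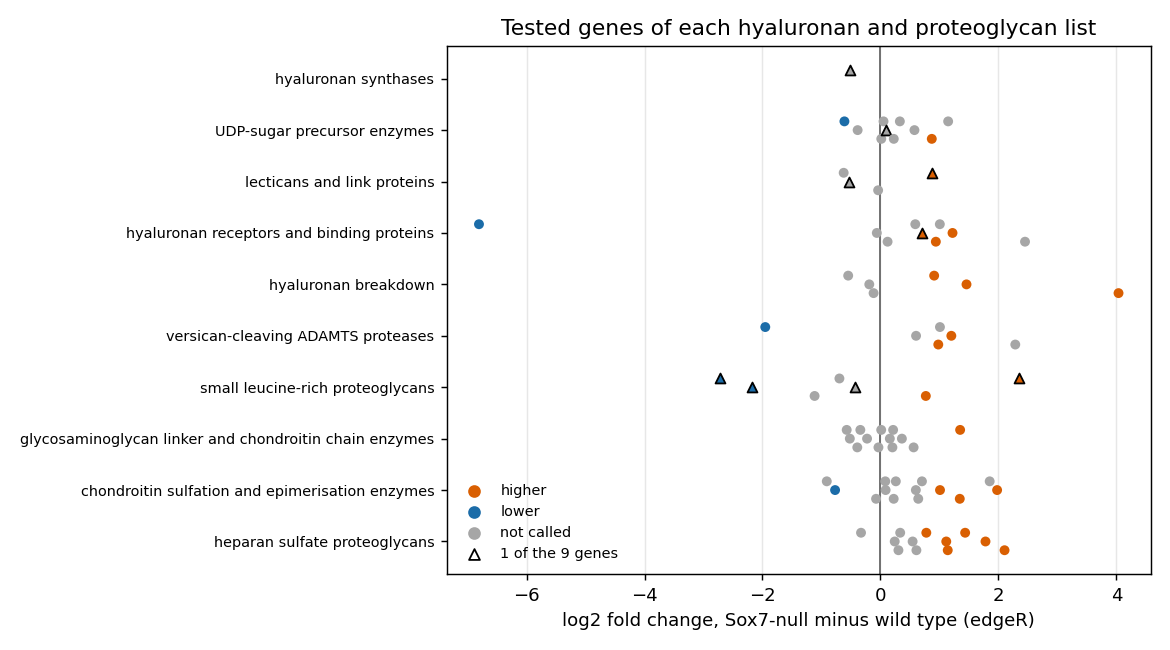
Log2FC (Sox7-null minus wild type, edgeR) of each tested gene in each list, with called genes in orange (higher) or blue (lower), others in grey, and triangles for the 9 genes. The heparan sulfate proteoglycan list has 6 orange points and 0 blue, and the chondroitin chain list has 1 orange point.

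Markers of the cells that make jelly and cushions moved both ways beside these results. Of 12 cushion mesenchyme markers 2 rose, Tbx20 and Col1a1 (16.7%, against 11.3% of all tested genes). Another 5 fell (41.7%, against 10.2%), among them the transcription factor genes Twist1 and Sox9. At an unadjusted edgeR p under 0.05, 2 were higher and 8 lower, and the median log2FC was -0.90. Those shares of all tested genes stand beside the other marker counts too. The summed level of the cushion markers was 595 and 556 CPM in the null tubes against 504 in the wild type. Tbx20, one of the risers, which myocardium also makes, held most of that sum, and the other 11 markers summed to 197 and 156 CPM against 228. Cardiomyocyte markers, of which 5 of 10 rose and 0 fell (1 lower at an unadjusted p under 0.05), summed to 33060 and 31890 CPM against 25340. Endocardial and endothelial markers, with 3 of 12 higher and 2 lower, summed to 666 and 652 CPM against 621. Of 10 epicardial markers 9 were tested, 2 rose and 0 fell. The risers were Krt19 and Wt1, the latter by 0.97 ± 0.24 (edgeR adjusted p = 0.0132). The 10 epicardial markers summed to 1123 and 868 CPM against 294, of which Krt19 alone held 791, 668 and 80.9. The other 9 epicardial markers listed summed to 332 and 200.02 CPM against 213. Of 10 fibroblast and connective tissue markers, which include Ogn and Aspn, 6 were tested and 0 were called, with 154 and 95.01 CPM against 167, and Dpt was at 0. In that list 1 gene had an unadjusted p under 0.05 (Scx, 0.0206), and its type I and III collagen genes Col1a2 and Col3a1 stood at 0.04 and -0.52. The other type I chain gene, Col1a1, which is listed with the cushion markers, rose by 1.87 ± 0.40 (edgeR adjusted p = 0.00675). Of 10 cartilage and sclerotome markers 2 were tested and Col2a1 rose, while Pax1 was at 0. Neural crest and pharyngeal markers had 1 of 5 tested higher and 1 lower, and primitive erythroid markers 0 of 9 in either direction (1 higher and 1 lower at an unadjusted p under 0.05). The erythroid markers summed to 4858 CPM in null tube 1, 14730 in null tube 2 and 14180 in the wild type, so null tube 1 stood apart from the other libraries. The part of any of these cells in the levels of the 9 genes was not tested.

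The genes with the pattern most like Bgn and Omd were sought over the 3 libraries, by the distance between centred log2(CPM + 0.5) values among genes with a mean of at least 5 CPM. Nearest to Bgn were A930001N09Rik (distance 0.0226), Fosl2 (0.0410) and Vegfa (0.125). Fosl2 had 55.8 and 27.3 CPM in the null tubes and 7.84 in the wild type, with the highest level in null tube 1 as for Bgn. Nearest to Omd were Lars2 (0.103), Gm15645 (0.139) and Ppp1r3a (0.224). With 3 libraries such a pattern has few degrees of freedom, and likeness is a description.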

How the data were processed

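Bulk RNA-seq was made from Trizol-extracted total RNA with a stranded total RNA kit, per the labels' protocols. Each deposited file holds the raw read counts of 1 library by gene symbol, as whole numbers. The submitters' processing notes name CASAVA, TopHat2, HTSeq and DESeq2 1.10.1. They also name human builds although the symbols are those of mouse, so coordinates here are those of the reference tables alone. For annotation and strand setting nothing is stated in the sources used here, so reads of overlapping or antisense genes cannot be told apart. Lines naming no gene were left out (no feature 8.10% to 11.7%, ambiguous 1.97% to 2.28%, not unique 10.4% to 22.3% of reads).

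The counts were tested with edgeR 4.0.16 (TMM, filterByExpr with minimum count 10, glmQLFit and glmQLFTest, genotype as the term) in R 4.3.3, with 1 residual and 11.8 prior degrees of freedom, adjusting p-values over all 13334 genes. The SE is the fold change over the square root of F. Exon lengths and GC came from GENCODE M21, matched for 99.0% of tested genes. Alternatives used DESeq2 1.42.0, limma 3.58.1, other scalings and filters, a length and GC offset, and each null library left out. The fit was tested on simulated data. Exact intervals and floors cover counting error only. The 9 genes and the lists were chosen with earlier results of these data known. Named were the 9 genes, up to 4 further genes of each list by smallest p (all called ones where a list had 6 or fewer), neighbours of a member, and the nearest patterns. Markers and genes with few reads needed for a list were named besides. Values of some listed genes are not reported here.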

Additional observations from a re-analysis of the deposited data

How the results depend on the processing

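Bgn, Cd44 and Omd were called in the same direction under 7 of 8 alternative settings. The exception was testing every gene with at least 1 read, where edgeR called 0 genes in all (0 of the 9 genes higher and 0 lower, 0 of the pathway genes higher and 0 lower). Prior degrees of freedom there fell to 3.23 from 11.8, and 4113 genes, with 5 of the 9, still had an unadjusted p under 0.05, and DESeq2, run on the 13334 filtered genes only, called 941 higher and 721 lower. The 9 genes called lower numbered 1 at a mean of at least 5 CPM, which leaves out Lum, 1 with DESeq2, which gave Lum no adjusted p, and 1 after removal of the length and GC trend, where Vcan also lost its call (2 higher). Pathway genes called lower numbered 2 at a mean of at least 5 CPM and 2 with DESeq2. With the length and GC trend removed, 999 genes were higher and 743 lower. Has2, Hapln1, Dcn and Ugdh were called under none of the 8 settings. Leaving out 1 null library gave a value with no test. It turned the sign of Ugdh only, to -0.044 without null tube 2 (0.22 without null tube 1). Without a TMM factor the median of all genes shifted by 0.083. Lum and the cluster genes with few reads are limited by depth. No paired analysis was possible because the groups share no replicate numbers.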

Other observations

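Vcan and Hapln1 are adjacent genes on chromosome 13, and their neighbours were read beside them. Edil3, which encodes a secreted integrin ligand and lies beyond Hapln1, had 980 and 675 reads in the null tubes against 402 in the wild type and rose by 1.00 ± 0.26 on the log2 scale (edgeR adjusted p = 0.0152). Xrcc4, a DNA repair gene beyond Vcan, had 261, 248 and 167 reads (log2 fold change 0.57 ± 0.25, edgeR adjusted p = 0.119). Hapln1 was thus the one of these 4 neighbouring genes with lower values in both null tubes than in the wild type. These neighbours were fixed by position, and no relation between them was tested.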
